A study of Homo sapiens with 8 samples.

Results

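The SUMO proteases SENP1, SENP2, SENP3, SENP5, SENP6 and SENP7 and the SUMO ligases PIAS1, PIAS2, PIAS3 and PIAS4 were followed through 8 mRNA-seq libraries of HCT116, a human colorectal cancer cell line. These 10 genes, 6 of the SENP family and 4 of the PIAS family, were taken by symbol, and each has a row in both count tables, which list 42125 and 23393 genes. Per the labels, every library came from HCT116 cells that carry a stable Tet-On shSAE2, an shRNA that doxycycline (Dox) switches on. Its target is UBA2, also named SAE2, the catalytic subunit of the SUMO E1 enzyme. In the first experiment these cells received control siRNA or TFAP2C siRNA, an siRNA against the transcription factor TFAP2C, and were taken after 48 hrs. In the second, the group named control received DMSO for 5 days and the group named SAE2 kd received 1 μg/mL of Dox for 5 days. Each of the 4 groups had 2 libraries. The labels do not say that replicates were separate cultures, so p-values measure the spread between these libraries, which may be technical. No group received Dox without the shRNA, so the effects of Dox and of the shRNA cannot be told apart.

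SUMO is attached to lysines of target proteins by an E1, an E2 and often an E3 ligase, and it is removed again by proteases, so that the same enzymes set how long a protein stays modified. The SENP proteins are cysteine proteases that mature the SUMO precursors and cut SUMO from its targets. SENP1 and SENP2 act on all SUMO paralogs, SENP3 and SENP5 prefer SUMO2 and SUMO3 and work largely in the nucleolus, and SENP6 and SENP7 mainly trim chains of SUMO2 and SUMO3. The PIAS proteins, first known as inhibitors of activated STAT, are E3 ligases that hold the E2 enzyme through an SP-RING domain and bring it to nuclear targets such as transcription factors.

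The genes lie apart in the genome, on GRCh38 as the table of TFAP2C siRNA gives it. SENP1 is at chr12:48042897-48106079, SENP2 at chr3:185582496-185633551, SENP3 at chr17:7561919-7571969, SENP5 at chr3:196867856-196934714, SENP6 at chr6:75601509-75718281 and SENP7 at chr3:101324205-101513241. PIAS1 is at chr15:68054179-68198603, PIAS2 at chr18:46803218-46920160, PIAS3 at chr1:145848522-145859836 and PIAS4 at chr19:4007736-4039386. SENP1, SENP7, PIAS2 and PIAS3 are on the minus strand and the others on the plus strand.

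TFAP2C belongs to the AP-2 family, which binds a palindrome with the core GCCNNNGGC, so the stretches around the start sites of the 10 genes were searched for these letters. RefSeq sequences on GRCh38.p14, from 250 bases before to 50 bases after a start site, were at hand for 8 of the 10 genes, in 12 windows, since some genes have several start sites. SENP2 and SENP7 were not matched. The letters occurred in 6 of these 12 windows, belonging to SENP1, SENP3, SENP6, PIAS1 and PIAS4, and in 23.2% of 35116 windows of the same length over all genes. The matches of SENP1 and SENP3 lay after the start site, by 25 and 35 bases. Windows of SENP1 overlap each other, as do those of PIAS1, which both held a match, so the 12 are not separate. By gene, 5 of 8 had a match. The motif reads the same on both strands, so one search covers both. The GC content was 46.0% in a PIAS2 window and from 59.7% to 79.0% in the others, beside a median of 58.7% over all genes. The fixed letters of the motif are all G or C, and the share at equal GC content was not tested. A match is a description of letters only. PIAS1 and PIAS4 are shown because a match lies upstream of the gene in the count table, and SENP5 because its window holds none. Each sequence runs 5′ to 3′ on the gene's strand and covers the part of the 250 upstream bases that lies outside every gene listed, with GCCNNNGGC in capitals.
PIAS1, chr15:68054065-68054178, plus strand: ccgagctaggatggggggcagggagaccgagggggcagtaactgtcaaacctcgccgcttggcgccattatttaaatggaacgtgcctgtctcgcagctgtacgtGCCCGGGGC
PIAS4, chr19:4007486-4007735, plus strand: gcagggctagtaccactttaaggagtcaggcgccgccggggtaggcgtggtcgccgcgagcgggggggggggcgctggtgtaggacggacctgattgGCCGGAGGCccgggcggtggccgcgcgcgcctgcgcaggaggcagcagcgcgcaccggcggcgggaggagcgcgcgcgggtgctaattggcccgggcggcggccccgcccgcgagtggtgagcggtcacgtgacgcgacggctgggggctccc
SENP5, chr3:196867670-196867855, plus strand: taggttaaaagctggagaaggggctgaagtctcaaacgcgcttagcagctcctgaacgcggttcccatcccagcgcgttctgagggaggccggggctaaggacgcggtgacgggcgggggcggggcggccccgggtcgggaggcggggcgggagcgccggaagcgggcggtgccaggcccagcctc

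The libraries held from 18213739 to 24465109 counts, and 14991 genes of the first experiment and 13381 of the second passed the expression filter, each of the 10 SENP and PIAS genes among them with 265 to 2944 counts per library. The targeted gene TFAP2C had 18.9 and 20.5 CPM (counts relative to the library total, scaled between libraries) with control siRNA and 3.46 and 4.30 CPM with TFAP2C siRNA, a log2 fold change of -2.34 (SE, the standard error of the estimate, 0.13). UBA2 had 162 and 146 CPM in control and 147 and 153 CPM in SAE2 kd, and differed by -0.036 on the log2 scale (SE 0.056), with adjusted p = 0.766 from the quasi-likelihood test in edgeR. Its mRNA was thus not lower beyond the spread of the replicates, and the group is called the libraries labelled SAE2 kd here. Replicates differed by 2.47 to 2.68 times counting noise (chi-square per degree of freedom) in control siRNA, control and SAE2 kd, but by 8.38 times between the 2 TFAP2C siRNA libraries. Of 8 markers of colon epithelium, 6 were above 1 CPM in every library, while VIL1 and CDX1 were at or near 0. The summed level of the 8 was 2804 and 2913 CPM with control siRNA, and 3404 and 3134 CPM with TFAP2C siRNA. Its largest parts were KRT19, KRT8 and KRT18, with means of 1187, 870 and 461 CPM in control siRNA. None of the 6 markers tested passed an adjusted p under 0.05 with TFAP2C siRNA (edgeR). The log2 fold change was below 0 for 2 of the 6, EPCAM (-0.0016) and CDH1 (-0.047). Of 8 markers of blood, vessel and connective tissue cells, only COL1A1 was above 1 CPM in every library, and 2 were at 0 throughout each experiment.

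Per kb of gene length, the order of the 10 genes was not the same in the tables, which used different gene models. In control siRNA, PIAS3 had the highest level, 15.7 ± 0.139 CPM per kb (SD, n = 2), followed by PIAS4 with 12.03 ± 0.730 CPM per kb. The proteases SENP5, SENP2, SENP6 and SENP3 came next, from 9.42 down to 6.03 CPM per kb, and PIAS1 had 5.07 CPM per kb. SENP1, SENP7 and PIAS2 were lowest, with 2.76, 2.68 and 2.08 CPM per kb. The libraries of SENP1 and SENP7 overlapped, so these neighbours were not separated, while all other neighbours were apart in both libraries.

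In the control libraries of the second experiment, SENP6 came first with 18.8 ± 0.126 CPM per kb (SD, n = 2), before SENP2 with 18.5 ± 0.0716 and PIAS4 with 17.3 ± 0.429 CPM per kb. PIAS1 and SENP5, at 13.8 and 13.6 CPM per kb, were not separated, and SENP7 was again among the lowest with 2.92 CPM per kb. The level of PIAS1 per kb rests on the gene length the table gives, 10.755 kb in the first and 2.31 kb in the second. Levels per kb were therefore compared within a table only, and the order within a table rests on these lengths too. PIAS2, lowest per kb in control siRNA, has a length of 17.511 kb there and 7.561 kb in the second. Before division by length its mean in control siRNA was 36.4 CPM, above SENP1 with 16.8 CPM and SENP7 with 17.0 CPM.

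**Figure D1:**
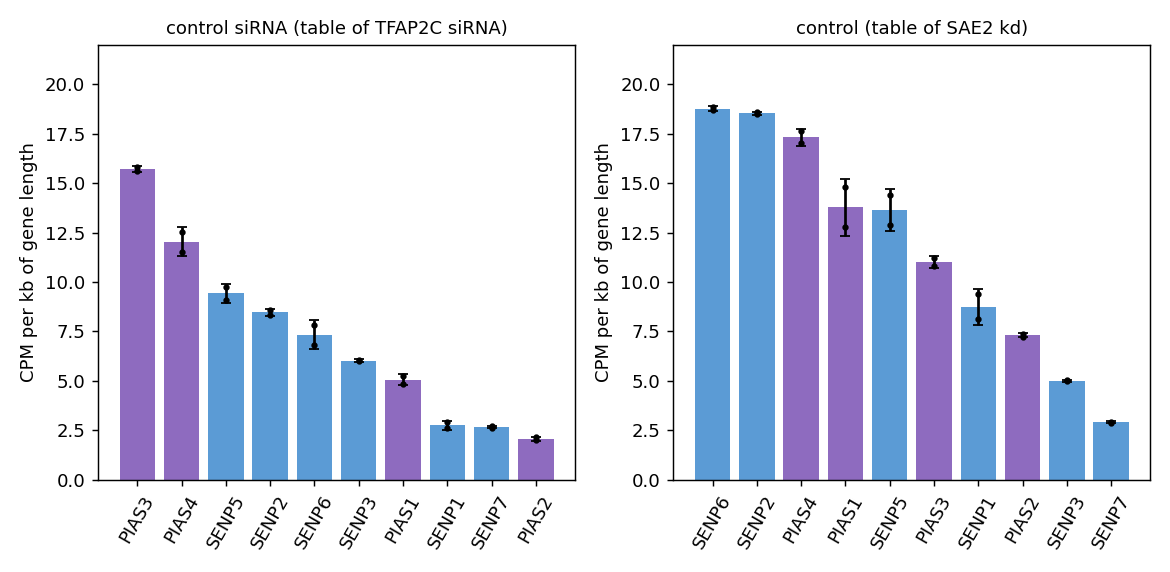
Level of each gene in control siRNA (left) and control (right) libraries, as CPM per kb of the gene length in that table; bars are means, error bars the SD and dots the 2 libraries, with SENP genes in blue and PIAS genes in purple. PIAS3 is highest on the left at 15.7 CPM per kb and SENP6 on the right at 18.8 CPM per kb, while SENP7 is at 2.68 and 2.92 CPM per kb.

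With TFAP2C siRNA, no SENP or PIAS gene differed from control siRNA at an adjusted p under 0.05. The largest estimates were a log2 fold change of -0.20 for SENP7 and 0.15 for PIAS4, and the adjusted p ranged from 0.533 to 0.998 (edgeR's quasi-likelihood test, two-sided). Of all genes tested, 0.74% passed, 0.26% higher and 0.48% lower. In bulk RNA, fewer cells of a type and less RNA per cell cannot be told apart. The count was also 0 at an unadjusted p under 0.05, which 12.6% of all genes passed, and 0 with the Wald test of DESeq2. The estimate was below 0 for 6 of the 10 genes and for 50.9% of all genes, and its median was -0.014 and -0.0038.

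Among the proteases that act on all paralogs, SENP1 had 17.8 and 15.8 CPM with control siRNA and 16.8 and 16.2 CPM with TFAP2C siRNA. The knockdown libraries lay between the controls, and the log2 fold change was -0.027 (SE 0.10). SENP2 had 60.9 and 59.0 CPM with control siRNA and 63.1 and 64.6 CPM with TFAP2C siRNA. Both knockdown libraries were above both controls, but the log2 fold change of 0.090 had a 95% confidence interval from -0.071 to 0.25.

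The nucleolar protease SENP3 had 21.6 and 21.96 CPM with control siRNA and 24.1 and 22.4 CPM with TFAP2C siRNA. The groups did not overlap here either, with a log2 fold change of 0.095 (SE 0.094). SENP5 had 68.6 and 63.8 CPM against 64.7 and 70.7 CPM, and its groups overlapped. In all, the groups did not overlap for 3 of the 10 genes, SENP2, SENP3 and PIAS3, where this was so for 44.7% of all genes tested, 22.4% in each direction.

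The chain-trimming proteases differed more between the TFAP2C siRNA replicates than between the groups. SENP6 had 89.3 and 77.5 CPM with control siRNA, and 67.8 and 90.8 CPM with TFAP2C siRNA. SENP7 had 17.4 and 16.7 CPM with control siRNA, and 11.5 and 18.3 CPM with TFAP2C siRNA. For both genes, replicate 1 of TFAP2C siRNA was the lowest of the 4 libraries and replicate 2 the highest. The log2 fold change of SENP7, -0.20, had the widest interval of the 10 genes, from -0.56 to 0.17, which allows a fall of up to 32.4%.

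Of the ligases, PIAS1 had 56.6 and 52.4 CPM with control siRNA and 46.5 and 56.7 CPM with TFAP2C siRNA, again with replicate 1 lowest. PIAS2 had 37.6 and 35.1 CPM against 34.8 and 38.0 CPM, and its log2 fold change was -0.00073. PIAS3 had 74.8 and 75.8 CPM against 72.6 and 72.8 CPM. Its knockdown libraries were both below the controls, by a log2 fold change of -0.050 (SE 0.071). PIAS4 had 40.8 and 44.4 CPM against 51.4 and 43.3 CPM, and here replicate 1 of TFAP2C siRNA was the highest library, while replicate 2 lay between the controls. The interval of PIAS4, from -0.055 to 0.36, allows a rise of up to 28.6%.

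**Figure D2:**
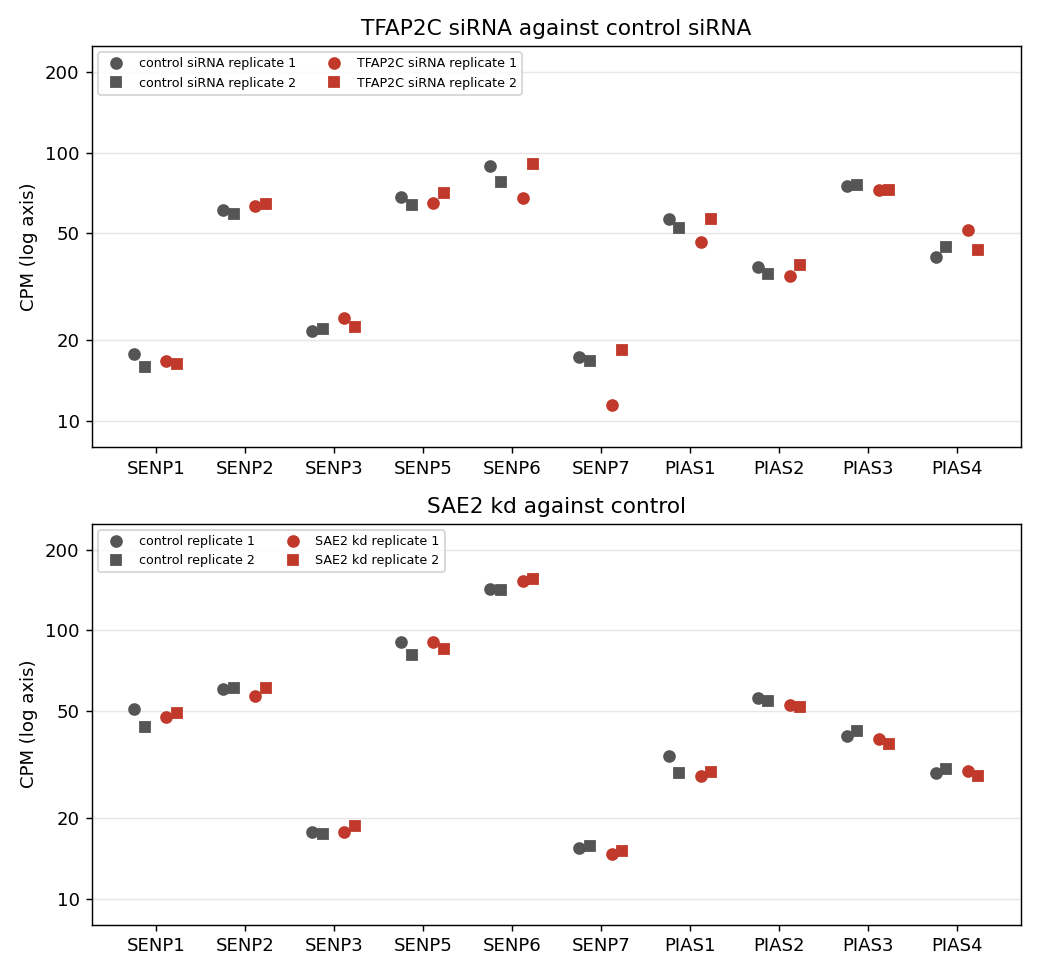
CPM on a log axis of each gene in each library, for the siRNA experiment (top) and the Dox experiment (bottom), with the control groups in grey, TFAP2C siRNA and SAE2 kd in red, replicate 1 as circles and replicate 2 as squares. The TFAP2C siRNA replicates stand furthest apart for SENP7, at 11.5 and 18.3 CPM, while the SENP6 libraries of SAE2 kd, at 153 and 155 CPM, are both above the controls.

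For SENP7, SENP6, PIAS1 and PIAS4 the 2 TFAP2C siRNA libraries disagreed, and which of them is atypical cannot be told. On a log2 scale centred on the median of all genes, replicate 1 less replicate 2 was -0.70 for SENP7, -0.44 for SENP6, -0.31 for PIAS1 and 0.23 for PIAS4. A larger difference between these replicates was seen in 4.34%, 10.9%, 19.3% and 27.8% of all genes tested. When TFAP2C siRNA replicate 2 was left out, 4 of the 10 genes passed the threshold, SENP7 at -0.57 (adjusted p = 3.08e-05), SENP6 at -0.30 (adjusted p = 0.000794), PIAS1 at -0.23 (adjusted p = 0.0260) and PIAS4 at 0.28 (adjusted p = 0.00486, all edgeR). In that fit 2825 of 15538 genes passed over the whole table, beside 111 with all 4 libraries, and the lone knockdown library is assumed to vary like the controls. When TFAP2C siRNA replicate 1 was left out instead, 537 genes passed but none of the 10. SENP7, SENP6 and PIAS1 then had log2 fold changes of 0.11, 0.12 and 0.057, the opposite direction, and PIAS4 had 0.025.

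The 4 genes with the longest span in this table, SENP7 at 189 kb, PIAS1 at 144 kb, and PIAS2 and SENP6 at 117 kb each, had the lowest values of replicate 1 less replicate 2 among the 10, with PIAS2 at -0.15. SENP5, SENP2 and PIAS3 were also lower in replicate 1, by less, and SENP1, SENP3 and PIAS4 were higher. Across 14959 genes, the span had a Spearman correlation of -0.16 with the difference of replicate 1 from replicate 2 in TFAP2C siRNA. With the gene length in the table in place of the span it was -0.16 too. The correlation with span was 0.073 in control siRNA, and over 13229 genes it was 0.18 in control and -0.091 in SAE2 kd. Genes of a library share its depth and RNA, so no p is given, and the part of span or length in the values of SENP6, SENP7 and PIAS1 was not tested.

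**Figure D3:**
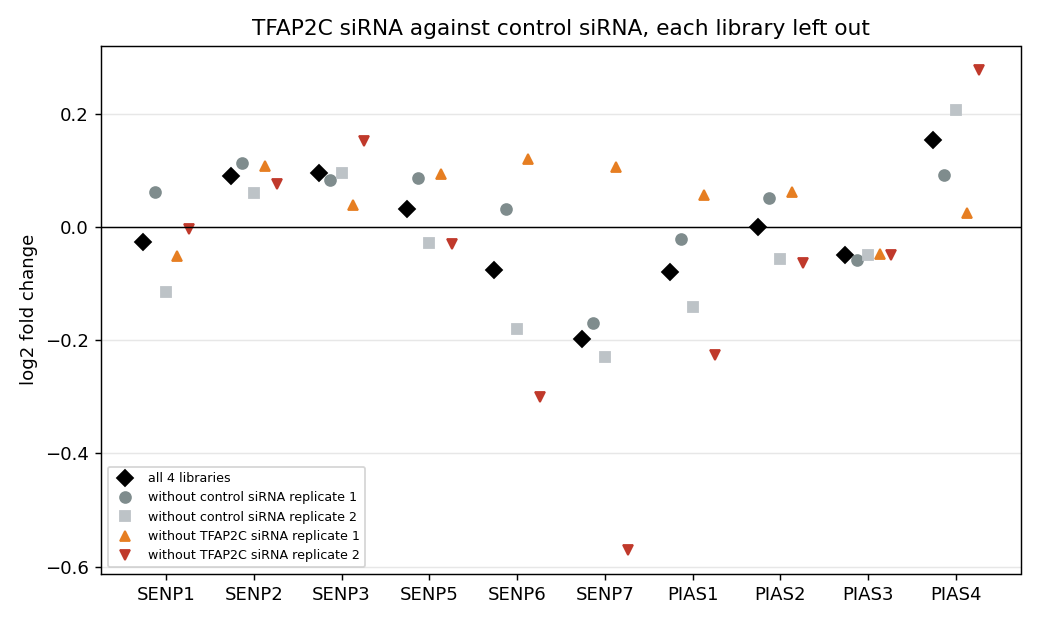
Log2 fold change of each gene with TFAP2C siRNA over all 4 libraries (black diamonds) and with each library left out in turn. SENP7 lies at -0.57 without TFAP2C siRNA replicate 2 and at 0.11 without replicate 1, while the values of PIAS3 stay between -0.059 and -0.047 when a library is left out.

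In the libraries labelled SAE2 kd, none of the 10 genes passed an adjusted p under 0.05 either, where 9.98% of all genes tested did, 5.52% higher and 4.47% lower. The adjusted p ranged from 0.172 to 0.866 (edgeR's quasi-likelihood test, two-sided), and the Wald test of DESeq2 gave 0 as well. One gene, SENP6, had an unadjusted p under 0.05, which 22.7% of all genes passed, and with DESeq2 none had. The spread was smaller than in the siRNA experiment, with standard errors of 0.053 to 0.10 on the log2 scale for the 10 genes, beside 0.071 to 0.17 there. All 10 intervals lay between a fall of 18.2% (PIAS1) and a rise of 17.8% (SENP3), so changes within these bounds could go undetected. SENP6, with the smallest standard error, did not pass with an estimated rise of 8.47%.

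SENP6 had 142 and 141 CPM in control and 153 and 155 CPM in SAE2 kd. Both labelled libraries were above both controls by more than the replicates differed, with a log2 fold change of 0.12 (SE 0.053, 95% confidence interval 0.010 to 0.22). Its adjusted p = 0.172 (edgeR) did not pass. Each library left out in turn gave values from 0.11 to 0.13. SENP7, its closest relative in the family, had 15.4 and 15.7 CPM against 14.7 and 15.0 CPM, lower in both labelled libraries, with a log2 fold change of -0.062 (SE 0.10).

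SENP1 had 50.8 and 43.8 CPM in control and 47.6 and 49.3 CPM in SAE2 kd, so that the controls enclosed the other libraries. SENP2 had 60.5 and 60.9 CPM against 56.9 and 61.2 CPM, and SENP5 had 90.6 and 81.2 CPM against 90.7 and 85.3 CPM. Their log2 fold changes were 0.038, -0.040 and 0.036, each smaller than its standard error. The controls overlapped with the labelled libraries for all 3 genes.

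SENP3 had 17.7 and 17.5 CPM in control and 17.7 and 18.6 CPM in SAE2 kd, but its values are uncertain. On chromosome 17 of hg19, SENP3 (7465309 to 7475287) lies wholly within the readthrough gene SENP3-EIF4A1 (7465309 to 7482324) on the same strand. This row took from 12732 to 14813 counts per library, beside 318 to 365 for SENP3. EIF4A1 has no row of its own in the table of SAE2 kd, so the readthrough row may hold reads of EIF4A1. How reads in the shared exons were divided is not given in the sources used here. In the table of TFAP2C siRNA the same readthrough row has 7 to 14 counts, SENP3 458 to 579 and EIF4A1 227 to 259. The rows of the locus thus held far fewer counts there, and the level of SENP3 per kb and its place in the order are uncertain in both tables. SENP1 overlaps PFKM, an abundant glycolytic gene on the opposite strand, by 436 bp in hg19 and 941 bp in GRCh38. The strand setting of the counting is not given in the sources used here, so reads in that overlap could not be assigned with certainty.

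The 4 PIAS ligases all had log2 fold changes below 0 in the libraries labelled SAE2 kd, but none passed the threshold. PIAS1 had 34.1 and 29.5 CPM in control and 28.7 and 29.6 CPM in SAE2 kd. Its log2 fold change of -0.12 (SE 0.083) rested on control replicate 1, without which it was -0.014. PIAS2 had 55.8 and 54.7 CPM against 52.8 and 51.9 CPM, and PIAS3 had 40.6 and 42.1 CPM against 39.5 and 37.9 CPM. Both were lower in each labelled library than in each control, by log2 fold changes of -0.078 and -0.096. PIAS4 had 29.4 and 30.4 CPM against 30.0 and 28.6 CPM, which overlapped.

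The median log2 fold change of the 4 PIAS genes was -0.087 and that of the 6 SENP genes 0.037, beside -0.00042 over all genes. A log2 fold change below 0 was found in 50.1% of all genes tested. The groups did not overlap for SENP6, SENP7, PIAS2 and PIAS3, 4 of the 10 genes, where they did not overlap for 51.3% of all genes. SENP6 was the only one of them that was higher, beside 25.5% of all genes, and 3 were lower, beside 25.8%.

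**Figure D4:**
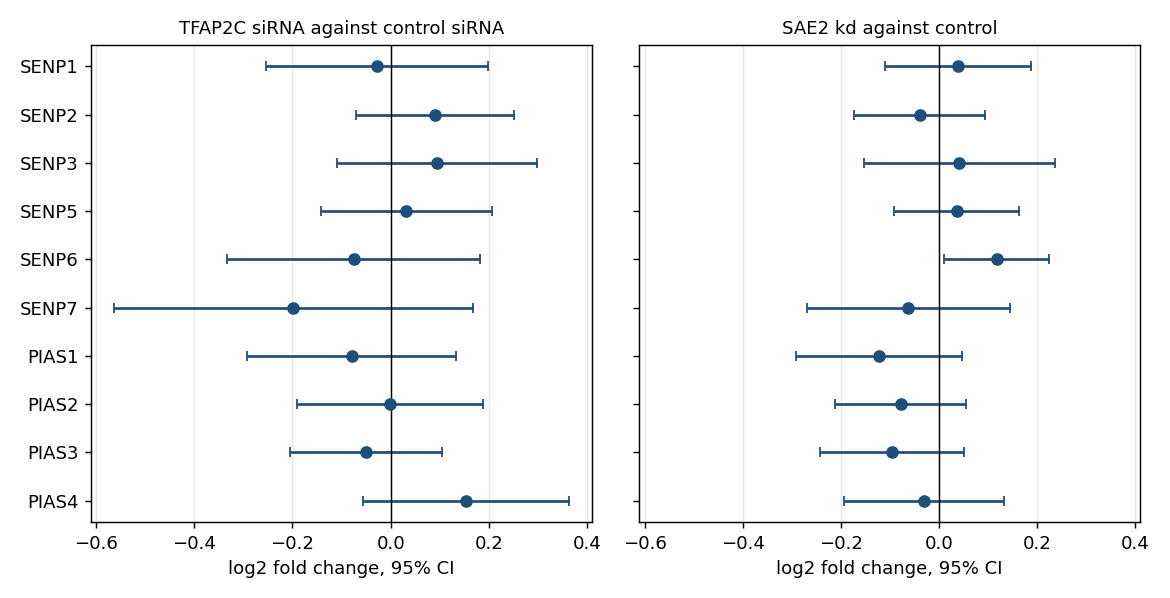
Log2 fold change of each gene with its 95% confidence interval from edgeR, for TFAP2C siRNA (left) and SAE2 kd (right). Each interval on the left includes 0, and on the right 9 of 10 do, with SENP6 from 0.010 to 0.22.

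Whether a gene changed differently in the experiments was tested with the 8 libraries fitted together, as the change with TFAP2C siRNA less that in the libraries labelled SAE2 kd. None of the 10 genes passed, at an adjusted or an unadjusted p under 0.05, where 2.37% of the 13179 genes tested passed after adjustment and 14.1% before it. The Wald test of DESeq2 gave 0 too. The largest differences were -0.21 for SENP6 (SE 0.15, adjusted p = 0.582, edgeR) and 0.17 for PIAS4 (SE 0.12, adjusted p = 0.590, edgeR). Without TFAP2C siRNA replicate 2 the differences of SENP6 and SENP7 passed, at -0.44 and -0.53 (adjusted p = 0.00196 and adjusted p = 0.0183, edgeR), in a fit where 1554 of 13373 genes passed, or 11.6%. The experiments were counted separately, so handling is part of these values.

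Other genes of the SUMO pathway were followed as 4 lists, together with SENP8, the SENP family protease for NEDD8 rather than SUMO. With TFAP2C siRNA, 0 of their 21 genes passed with edgeR and 0 with DESeq2, and 1 gene, DESI1, had an unadjusted p under 0.05 with either tool. In the libraries labelled SAE2 kd, 2 of 8 other SUMO ligases passed as higher, beside the 5.52% of all genes given above. None passed as lower. DESeq2 called 2 as well. At an unadjusted p under 0.05 edgeR had 4 of the 8, beside 22.7% of all genes, and DESeq2 had 2. The further ones with edgeR were ZNF451, at a log2 fold change of 0.14, and NSMCE2, at -0.20. The median log2 fold change of this list was 0.047. None of 4 core genes of conjugation (SUMO2, SUMO3, SAE1 and UBA2) passed, nor any of 4 other proteases (SENP8, DESI1, DESI2 and USPL1), nor any of 5 SUMO-dependent ubiquitin ligases and PML body genes (RNF4, RNF111, PML, SP100 and DAXX). By DESeq2 the count in these 3 lists was 0 too, and DAXX alone had an unadjusted p under 0.05 with edgeR. Their median log2 fold changes were -0.062, 0.019 and -0.041 in SAE2 kd, and 0.078, 0.069 and 0.042 with TFAP2C siRNA.

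The ligases that rose past the threshold were ZMIZ2 and ZMIZ1. ZMIZ1 and ZMIZ2 carry an SP-RING like the PIAS proteins and act as transcriptional coactivators. ZMIZ2 had 141 and 151 CPM in control and 190 and 168 CPM in SAE2 kd. It rose by 0.29 on the log2 scale (SE 0.058, adjusted p = 0.000604, edgeR) and stayed past the threshold under every alternative tried, at 0.20 to 0.38 with a library left out. ZMIZ1 had 93.1 and 94.9 CPM against 118 and 103 CPM, a rise of 0.24 on that scale (SE 0.062, adjusted p = 0.0100, edgeR). ZMIZ2 had 165 and 160 CPM with control siRNA and 180 and 178 CPM with TFAP2C siRNA. Its log2 fold change of 0.14 (SE 0.066) did not pass there, and that of ZMIZ1 was -0.0034. The difference between the experiments did not pass for ZMIZ2 (adjusted p = 0.459, edgeR) or ZMIZ1 (adjusted p = 0.235, edgeR). Replicate 1 of SAE2 kd was the higher of the labelled libraries for both ligases. Without it, ZMIZ1 was at 0.14 and did not pass (adjusted p = 0.248, edgeR), nor did it when all 8 libraries shared 1 fit (adjusted p = 0.0614, edgeR). In the same libraries the 8 epithelial markers summed to 2151 and 2169 CPM in control and 2500.04 and 2407 CPM in SAE2 kd. Higher past the threshold were 3 of the 8, EPCAM, KRT8 and KRT18. KRT8 and KRT18 were the largest parts of the sum, with means of 980 and 578 CPM in control. KRT19, CDH1 and CDX2 did not pass, at 0.15, 0.046 and -0.0045 on the log2 scale. The part of these markers in the rise of the 2 ligases was not tested.

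**Figure D5:**
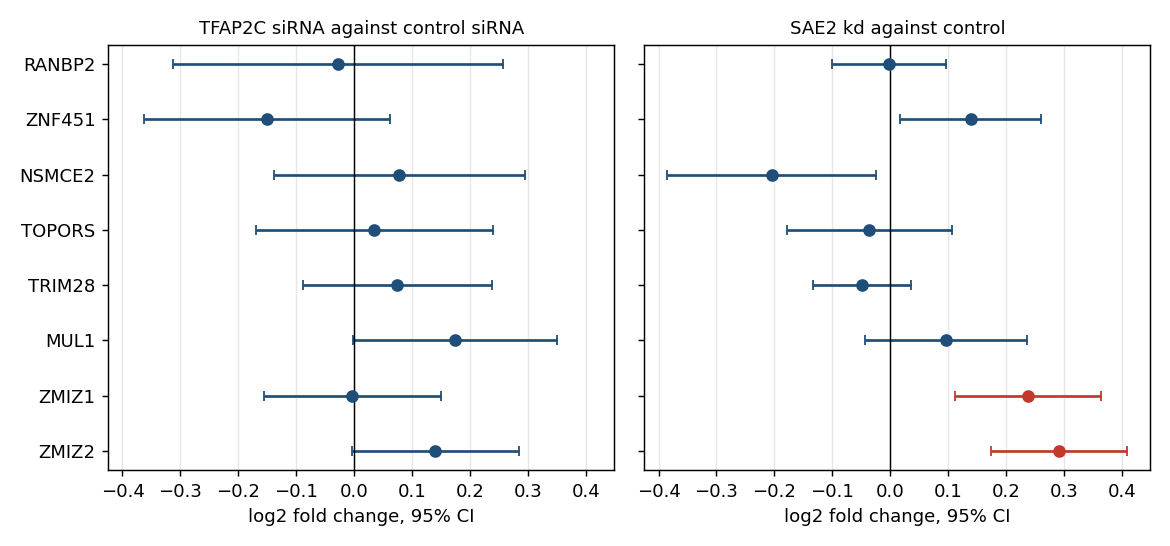
Log2 fold change with 95% confidence interval of 8 SUMO ligases outside the PIAS family, with those at an adjusted p under 0.05 in red. In SAE2 kd (right) ZMIZ1 and ZMIZ2 lie at 0.24 and 0.29. With TFAP2C siRNA (left) they lie at -0.0034 and 0.14, and none is marked.

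The genes whose pattern was most like that of the leading members were sought over 12158 genes tested in both tables, by the Pearson correlation of log2 CPM centred within each table over 8 libraries. For PIAS4, which had the largest F statistic with TFAP2C siRNA, these were PKMYT1 (0.986), GSK3A (0.985) and DNAAF5 (0.982). For SENP6, which had it in SAE2 kd, they were CREBRF, TRMT13 and MTX3 (0.988, 0.987 and 0.986). The libraries share the difference between the TFAP2C siRNA replicates, which is part of the pattern of both genes, so these values are a description only.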

How the data were processed

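mRNA-seq counts of 8 libraries were analysed in 2 experiments, TFAP2C siRNA against control siRNA and SAE2 kd against control, with groups and replicate numbers from the titles. Per the labels and methods, single-end reads were mapped to hg19 by TopHat2 and assigned to genes by HTSeq 0.9.1, and the authors deposited raw counts without normalization. The positions in the table of TFAP2C siRNA are those of GRCh38, which differs from the methods, so each table was analysed on its own and each position is given on its table's build. The gene lengths in kb are those deposited by the authors. The ChIP-seq and proteomics data were not analysed here.

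Low genes were removed by filterByExpr (edgeR 4.0.16, R 4.3.3), libraries were scaled by TMM, and groups were compared by the quasi-likelihood test with Benjamini-Hochberg adjustment over all genes tested and a threshold of 0.05. The SE is the size of the estimate divided by the square root of F. The difference between the experiments was an interaction over the symbols both tables list. The spread edgeR estimated, as a biological coefficient of variation, was 6.28% for the siRNA and 3.56% for the Dox libraries.

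Named were the 10 genes, the targeted genes, up to 3 genes of each list with the largest change past the threshold, and the 3 genes most like the member with the largest F statistic in each comparison, with a pseudocount of 0.5 CPM. NSMCE2, RNF4 and ZNF451 were named after their values were seen. Some genes of the lists are not reported here. The members and lists were chosen with earlier results of these data known. Alternatives were other scaling, the Wald test of DESeq2 1.42.0, other filters, a replicate block, all 8 libraries in 1 fit and each library left out. The code was tested on simulated data. Same-numbered siRNA libraries had a correlation of deviations of -0.18 and Dox libraries one of 0.016, so the numbers were not taken as pairs.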

Additional observations from a re-analysis of the deposited data

Results flagged for a closer look

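NSMCE2, a SUMO ligase of the SMC5/6 complex, and RNF4, a ubiquitin ligase that recognises SUMO chains, were flagged for opposite directions in the experiments. Their groups did not overlap in either experiment. No other of the 21 genes in the lists had this pattern. It was seen in 8.98% of the 13179 genes tested in both, so the lists were near the share of all genes. NSMCE2 had 15.6 and 15.0 CPM with control siRNA against 16.3 and 16.1 CPM with TFAP2C siRNA, and 24.2 and 27.8 CPM in control against 22.5 and 22.8 CPM in SAE2 kd. The difference of its log2 fold changes, 0.27 (SE 0.13), did not pass (adjusted p = 0.369, edgeR). RNF4 had 74.2 and 78.0 CPM against 85.1 and 78.1 CPM with TFAP2C siRNA, and 89.0 and 83.6 CPM against 81.3 and 80.8 CPM in SAE2 kd. The siRNA groups of RNF4 were barely apart, with replicate 2 at 78.01 CPM in control siRNA and 78.09 CPM in TFAP2C siRNA. For RNF4 the difference was 0.18 (SE 0.093) and did not pass either (adjusted p = 0.411, edgeR). ZNF451, a ligase for SUMO2 and SUMO3 chosen here after its values were seen, had a larger difference, -0.30 (SE 0.13, adjusted p = 0.278, edgeR), but its siRNA groups overlapped.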

How the results depend on the processing

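The number of SENP and PIAS genes past the threshold was 0 under every alternative but one in each of 2 results. Leaving out 1 library gave from 0 to 4 for TFAP2C siRNA and from 0 to 2 for the difference between the experiments, in both without TFAP2C siRNA replicate 2, and it was 0 throughout for SAE2 kd. With the replicate block it was 0 in both experiments and in the difference. Over all genes the block gave 172, 1308 and 173 calls, beside 111, 1336 and 313, and the crossed numbers of the siRNA libraries, added after seeing the data, gave 467 calls and again 0 of the 10 genes.

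The direction was kept under every alternative by 4 of the 10 genes for TFAP2C siRNA, by 6 for SAE2 kd and by 4 for the difference. For PIAS2 with TFAP2C siRNA it turned with DESeq2 size factors (0.0013), the Wald test of DESeq2 (0.0016), no filter (0.0043) and the crossed block (0.00032), all near 0. Log2 fold changes that turned on leaving out 1 library ranged, for TFAP2C siRNA, from -0.12 to 0.061 for SENP1, -0.030 to 0.094 for SENP5, -0.30 to 0.12 for SENP6, -0.57 to 0.11 for SENP7, -0.23 to 0.057 for PIAS1 and -0.064 to 0.062 for PIAS2. For SAE2 kd they ranged from -0.067 to 0.15 for SENP1, -0.092 to 0.012 for SENP2, -0.041 to 0.12 for SENP5, -0.066 to 0.0062 for PIAS4 and -0.11 to 0.038 for UBA2, and for the difference from -0.18 to 0.026 for SENP1, -0.092 to 0.067 for SENP5, -0.44 to 0.012 for SENP6, -0.53 to 0.18 for SENP7, -0.13 to 0.19 for PIAS1 and -0.012 to 0.15 for PIAS2. The cause was not tested.

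Counts over all genes moved more. For TFAP2C siRNA they were 398 without a filter, 271 with all 8 libraries and 49 to 2825 with a library left out. For SAE2 kd they were 673 with DESeq2, 696 with all 8 libraries and 833 to 1271 with a library left out, and with library size only 588 were higher and 805 lower, beside 738 and 598. For the difference they were 607 without a filter and 113 to 1554 with a library left out.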
